A study of Mus musculus with 4 samples.

Results

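Heat shock proteins and chaperones are the 85 of 21779 protein-coding mouse genes described here. They were chosen by symbol: every gene beginning with Hspa, Hspb, Hspd, Hspe, Hsph, Hsp90, Dnaja, Dnajb or Dnajc, the Cct genes with a number, and Tcp1 and Hsf1. The data were CUT&Tag peak lists of 4 libraries from primary haematopoietic stem cells of mouse bone marrow with wild-type Ppp2ca, in 2 of which PPP2CA was targeted and in the other 2 an IgG control was used. CUT&Tag places sequencing adapters in the DNA around an antibody-bound protein, and PPP2CA is a catalytic subunit of the phosphatase PP2A. No treatment, heat or other stress is named in the labels for either group, and whether a group's libraries stem from different animals is not stated, nor are strain and age. The peak lists held 16811 and 17686 peaks for PPP2CA 1 and 2, against 561 and 310 for IgG 1 and 2, with a lowest local background of 0.784 and 0.8 fragments against 0.0839 and 0.0833. Of the stem and progenitor cell marker genes, Kit, Mecom and Meis1 carried a PPP2CA region at a boundary and Cd34, Ly6a, Procr, Slamf1, Gata2 and Hlf did not, and none of the 6 lymphoid and myeloid markers did. Occupancy is not expression, so this does not check the cell type.

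Chaperones bind unfolded proteins and help them reach or regain their shape. HSP70 proteins do this in cycles of ATP use, which the J-domain proteins of the Dnaja, Dnajb and Dnajc families start and HSP110 proteins reset, while HSP90 and the ring-shaped chaperonins act on proteins that need further help. Some chaperone genes are switched on by stress, through the transcription factor HSF1 in the cytosol and nucleus and through the unfolded protein response for the endoplasmic reticulum (ER), and others are made at all times. Haematopoietic stem cells are known for a tight control of protein synthesis and quality.

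In the text below, a region is a stretch where a peak of PPP2CA 1 and a peak of PPP2CA 2 overlapped and no IgG peak lay. A gene is called marked when a region overlapped the 1 kb on either side of its start or its end. The height of a peak is given as the number of fragments at its summit, recovered from the deposited values, and the fold is the authors' ratio of the summit to the local background. No p is given for these comparisons: an exact permutation of 2 libraries against 2 reaches no lower than 1 in 3 (two-sided), and genes of the same libraries are not replicates.

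PPP2CA regions lay at 60 of the 85 chaperone genes (70.6%, exact 95% interval 59.7 to 80.0), against 39.5% of all protein-coding genes. A peak of the single libraries was present at 63 members in PPP2CA 1 (74.1%, 43.8% of all genes), at 65 in PPP2CA 2 (76.5%, 44.4% of all genes), at 1 in IgG 1 (1.18%, 0.606% of all genes) and at 0 in IgG 2, which allows a share of up to 4.25% (0.22% of all genes). Summits of 100 or more fragments in both PPP2CA libraries were found at 11 members (12.9%) and at 3.33% of all genes. By rank of the lower summit among the 12438 regions, these 11 were Hspa5 (rank 16), Hspa8 (43), Dnajb1 (76), Dnaja1 (107), Hspa4 (117), Dnajb4 (177), Hsp90ab1 (260), Hsp90aa1 and Dnajb9 (348 each), Hsp90b1 (412) and Dnajb6 (592). Of the other 25 members, 18 had no peak of either PPP2CA library at a boundary (21.2%, against 51.8% of all genes), 4 had a peak in PPP2CA 2 alone, 2 in PPP2CA 1 alone, and 1, Hspa9, had a region with an IgG peak (1.18% of members, against 0.721% of all genes). Intervals cover counting error only, and members that share a region are not independent.

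**Figure D1:**
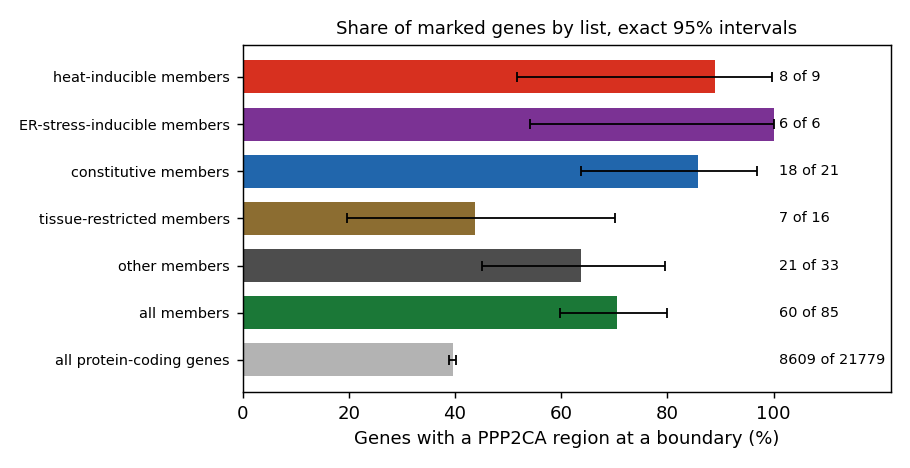
Share of genes (%) with a PPP2CA region within 1 kb of a boundary, for each list of chaperone genes, for all 85 members and for all 21779 protein-coding genes; bars start at 0 and error bars are exact 95% binomial intervals. Heat-inducible, ER-stress-inducible and constitutive members lie at 88.9%, 100% and 85.7%, and tissue-restricted members at 43.8%, near the 39.5% of all genes.

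The member lists separated stress-inducible from constitutive genes by textbook knowledge. Of the 15 inducible members 14 were marked (93.3%), namely 8 of 9 heat-inducible and 6 of 6 ER-stress-inducible genes, and of the 21 constitutive members 18 were (85.7%). Members whose use is known mainly from muscle, testis or other single tissues had 7 of 16 (43.8%), close to the 39.5% of all genes, and the remaining members 21 of 33 (63.6%). Among marked genes, the median summit of inducible members held 92 and 79 fragments in PPP2CA 1 and 2, that of constitutive members 54.5 and 62.5, that of all marked members 45 and 52.5, and that of all marked protein-coding genes 29 and 32. The inducible median was thus 1.69 and 1.26 times the constitutive one. The ranges overlapped nearly in full, from 10 to 415 and 14 to 416 fragments in inducible members and from 12 to 335 and 13 to 341 in constitutive members. Among members whose region touched no other protein-coding gene, the ratio was 1.19 and 1.23. By fold the medians were 10.2 and 9.31 in inducible and 8.61 and 8.21 in constitutive members, a ratio of 1.18 and 1.13.

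**Figure D2:**
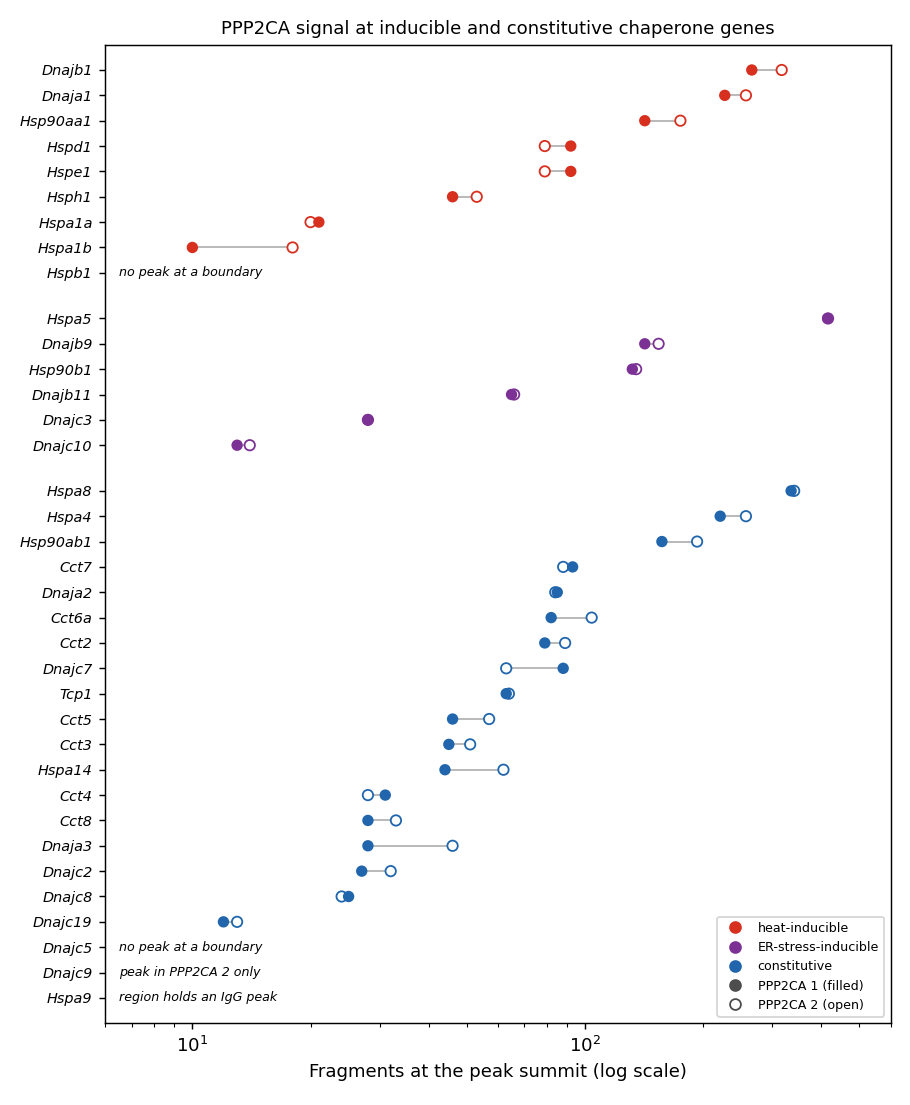
Fragments at the peak summit (log scale) of each inducible and constitutive chaperone gene in PPP2CA 1 (filled) and PPP2CA 2 (open), ordered within each list by the lower of the 2 values. Inducible genes run from 10 and 14 fragments to 415 and 416, constitutive genes from 12 and 13 to 335 and 341, and Hspb1, Dnajc5, Dnajc9 and Hspa9 have no PPP2CA region at a boundary.

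Hsf1, on chromosome 15 at 76477362 to 76501155, encodes the transcription factor that switches on heat shock genes. It carried a region at its low-coordinate boundary, with 38 and 37 fragments in PPP2CA 1 and 2, a fold of 8.92 and 7.57, and no IgG peak. The same region touched Bop1, a ribosome biogenesis gene. These values lie just above the median of all marked genes, and both libraries were nearly equal.

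The heat-inducible genes covered the whole span from no called peak to some of the highest summits of the genome. Dnajb1, on chromosome 8 at 83608175 to 83612653, encodes the main stress-induced J-domain partner of HSP70 and had 266 and 317 fragments in PPP2CA 1 and 2, with a fold of 10.4 and 10.9. Dnaja1, another J-domain protein gene, had 227 and 257 fragments, and its region also touched Aptx. Hsp90aa1, the stress-induced HSP90 gene on chromosome 12 at 110691036 to 110696395, had 142 and 175. All of these were above 100 fragments in both libraries. Hspd1 and Hspe1 encode the mitochondrial chaperonin and its lid, lie side by side on chromosome 1 and shared a single region at 55087099 to 55088579, with 92 and 79 fragments. Hsph1, an HSP110 gene, had only 46 and 53 fragments but a fold of 11.5 and 11.6, the highest of the heat-inducible genes in both libraries, because its local background was 3.1 and 3.67 fragments, against 24.7 and 28.1 at Dnajb1.

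The classical stress-induced HSP70 genes had low summits. Hspa1a, on chromosome 17 at 34969359 to 34972156, held 21 and 20 fragments in PPP2CA 1 and 2, and Hspa1b, at 34956429 to 34959238, held 10 and 18. The Hspa1a summits lay 298 and 363 bp upstream of its start, nearer to the start of Hspa1l, at 249 and 184 bp. The Hspa1b summits lay 439 and 900 bp upstream, so its values in PPP2CA 1 and 2 come from different points. The Hspa1b region was not found when peaks of −log10 q under 5 were left out. Hspa1a and Hspa1b are near-identical copies, and in the RefSeq table their promoters had 296 of 300 bases (98.7%) in common. Reads from one can thus be placed at the other or dropped, and their values are uncertain. At both genes the peaks ended before the gene: at Hspa1a they ran from -559 to -168 bp in PPP2CA 1 and from -564 to -173 bp in PPP2CA 2, counted from the start boundary with upstream negative, and at Hspa1b from -748 to -308 bp and from -1058 to -173 bp. At the other 11 marked inducible members placed by the promoter table, the peak of the highest region crossed the gene's start boundary in both libraries. The part of read placement between the copies in these low values was not tested. Hspb1, the small heat shock protein HSP27, on chromosome 5 at 135887919 to 135889563, had no peak of any of the 4 libraries within 1 kb of its boundaries.

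Across 6 heat-inducible genes that hold a paired heat shock element, PPP2CA peaks run from none called to high. Their promoters are shown for this reason. They are 300 bases from RefSeq (GRCm38.p6), 250 before to 50 after a start, 5′ to 3′ on the gene's strand, and capitals mark matches to GAANNTTC or TTCNNGAA, the paired units that HSF1 is known to bind. Dnaja1 is at chr4:40722218-40722517, Hspe1 at chr1:55087898-55088197, Hsph1 at chr5:149636287-149636586 on the minus strand, Hspa1a at chr17:34972107-34972406 and Hspa1b at chr17:34959189-34959488, both on the minus strand, and Hspb1 at chr5:135887669-135887968. The regions covered all 300 bases at Dnaja1, Hspe1 and Hsph1, 83 at Hspa1a, 78 at Hspa1b and 0 at Hspb1.
Dnaja1: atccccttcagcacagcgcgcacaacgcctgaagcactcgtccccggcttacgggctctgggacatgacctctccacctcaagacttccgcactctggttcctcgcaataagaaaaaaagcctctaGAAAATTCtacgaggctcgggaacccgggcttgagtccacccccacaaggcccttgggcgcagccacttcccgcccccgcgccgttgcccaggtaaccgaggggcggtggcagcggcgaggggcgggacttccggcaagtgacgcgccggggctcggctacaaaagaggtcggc
Hspe1: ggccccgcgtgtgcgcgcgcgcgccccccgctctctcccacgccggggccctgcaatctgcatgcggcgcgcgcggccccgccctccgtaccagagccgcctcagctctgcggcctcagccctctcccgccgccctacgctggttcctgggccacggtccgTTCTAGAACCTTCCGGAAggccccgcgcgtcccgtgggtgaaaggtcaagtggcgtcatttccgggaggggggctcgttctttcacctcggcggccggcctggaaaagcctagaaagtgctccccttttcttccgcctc
Hsph1: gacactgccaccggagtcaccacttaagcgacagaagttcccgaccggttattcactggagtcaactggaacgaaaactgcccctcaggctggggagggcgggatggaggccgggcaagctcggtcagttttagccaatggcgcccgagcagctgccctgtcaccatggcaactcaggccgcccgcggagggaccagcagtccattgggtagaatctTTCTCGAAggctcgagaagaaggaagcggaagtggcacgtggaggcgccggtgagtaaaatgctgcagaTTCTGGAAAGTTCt
Hspa1a: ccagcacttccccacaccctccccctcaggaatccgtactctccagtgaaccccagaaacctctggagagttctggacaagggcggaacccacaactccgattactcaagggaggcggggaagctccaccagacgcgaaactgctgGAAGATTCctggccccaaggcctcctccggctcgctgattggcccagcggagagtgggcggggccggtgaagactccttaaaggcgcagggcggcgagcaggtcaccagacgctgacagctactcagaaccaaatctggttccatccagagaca
Hspa1b: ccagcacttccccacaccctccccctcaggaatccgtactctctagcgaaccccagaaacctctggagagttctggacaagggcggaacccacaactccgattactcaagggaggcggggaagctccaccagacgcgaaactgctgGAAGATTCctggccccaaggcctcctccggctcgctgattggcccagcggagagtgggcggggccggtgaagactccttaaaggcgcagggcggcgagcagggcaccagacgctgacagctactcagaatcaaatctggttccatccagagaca
Hspb1: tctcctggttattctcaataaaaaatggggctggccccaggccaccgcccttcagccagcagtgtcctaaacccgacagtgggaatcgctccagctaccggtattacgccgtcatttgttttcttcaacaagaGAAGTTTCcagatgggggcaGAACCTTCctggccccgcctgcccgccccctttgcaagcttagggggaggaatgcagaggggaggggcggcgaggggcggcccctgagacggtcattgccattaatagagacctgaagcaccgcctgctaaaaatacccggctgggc
The overlapping units of Hspe1 begin 89, 84 and 79 bases before its start and lie in the promoter window of the opposite-facing Hspd1 as well. The single match of Hspa1a and Hspa1b begins 104 bases before the start, outside the peaks of both libraries. That of Dnaja1 begins 124 bases before its start, and those of Hspb1 117 and 97 bases before it. At Hsph1 1 match begins 33 bases before the start used here, and the overlapping matches begin 36 and 41 bases after it. From another annotated start of Hsph1 these positions are 54 bases before and 15 and 20 bases after. Units that depart from GAANNTTC or TTCNNGAA were not searched for, under the peaks or elsewhere.

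Of the 85 members, 69 are in the promoter table. Searching both strands, GAANNTTC or TTCNNGAA occurred in the promoters of 7 of the 8 heat-inducible genes there (87.5%; Dnajb1 had none in these windows), 1 of 6 ER-stress-inducible genes, 3 of 15 constitutive genes, 20 of all 69 members (29.0%) and 15.7% of all 17492 protein-coding genes in the table. Runs in which both motifs overlap by a unit are a GAANNTTC that goes on with NNGAA or the reverse. They were in Hspd1, Hspe1, Hsph1 and Dnajb6 (4 of 69 members, 5.8%), against 0.595% of all genes in the table. Of the 20 members with a paired unit 15 were marked, and of the 49 without one 35 were. Both shares are near the 70.6% of all 85 members, against 39.5% of all genes. The marked share of all genes with a paired unit was not computed. The 5 with a unit and no region were Hspb1, Hspb3, Hspb8, Cct8l1 and Dnajc5g. TATAAA was in 4 of 69 members (5.8%, against 14.8% of all genes in the table), none of them inducible, CCAAT in 30 (43.5%, against 42.3%) and GGGCGG in 51 (73.9%, against 49.2%). TGACGTCA, the cAMP response element, was in Dnajc27 alone of the members, against 2.54% of all genes. A match to these letters is not evidence of a bound site.

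All 6 ER-stress-inducible genes were marked, and they held the highest summit of any member. Hspa5, on chromosome 2 at 34772090 to 34776529, encodes BiP, the HSP70 protein of the ER. Its region at 34771598 to 34772766 held 415 and 416 fragments in PPP2CA 1 and 2, with a fold of 11.9 and 10.3, and the summits lay 20 and 4 bp downstream of its start. Dnajb9, an ER J-domain protein gene, had 142 and 154 fragments and the highest fold of all members in PPP2CA 1, 12.4 (11.0 in PPP2CA 2). Hsp90b1, the ER HSP90 protein GRP94, on chromosome 10 at 86690841 to 86705444, had 132 and 135 fragments. Dnajb11 had 65 and 66, Dnajc3, which encodes an inhibitor of the stress kinase PERK, 28 and 28, and Dnajc10, the ER disulfide reductase ERdj5, 13 and 14. The 6 genes thus spanned the members' whole upper range and reached below the median of all marked genes, in the same order in both libraries.

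The promoters of Hspa5 (chr2:34771840-34772139) and Hsp90b1 (chr10:86705395-86705694, minus strand) are shown for their ER stress elements, in capitals, CCAAT and CCACG with 9 bases between them, on either strand. Both lie in full under the PPP2CA regions.
Hspa5: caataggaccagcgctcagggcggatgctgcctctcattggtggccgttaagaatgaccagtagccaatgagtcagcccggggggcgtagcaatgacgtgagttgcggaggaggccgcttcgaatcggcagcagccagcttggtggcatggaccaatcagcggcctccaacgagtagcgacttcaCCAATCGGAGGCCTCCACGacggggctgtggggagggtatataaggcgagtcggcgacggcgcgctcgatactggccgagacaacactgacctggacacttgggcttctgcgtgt
Hsp90b1: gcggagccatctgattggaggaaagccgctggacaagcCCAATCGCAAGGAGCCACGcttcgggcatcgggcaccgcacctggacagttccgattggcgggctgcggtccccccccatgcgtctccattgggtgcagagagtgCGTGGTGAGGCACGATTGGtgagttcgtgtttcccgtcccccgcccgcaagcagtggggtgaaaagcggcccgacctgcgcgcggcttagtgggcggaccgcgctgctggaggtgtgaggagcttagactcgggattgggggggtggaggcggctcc
The element begins 65 bases before the start of Hspa5, and those of Hsp90b1 212 and 107 bases before its start, the second on the opposite strand. It was found in Hspa5, Hsp90b1 and Dnajc3 of the 6 ER-stress-inducible genes and in no other member of the promoter table. That is 3 of 69 members (4.35%), against 0.166% of all protein-coding genes there.

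**Figure D3:**
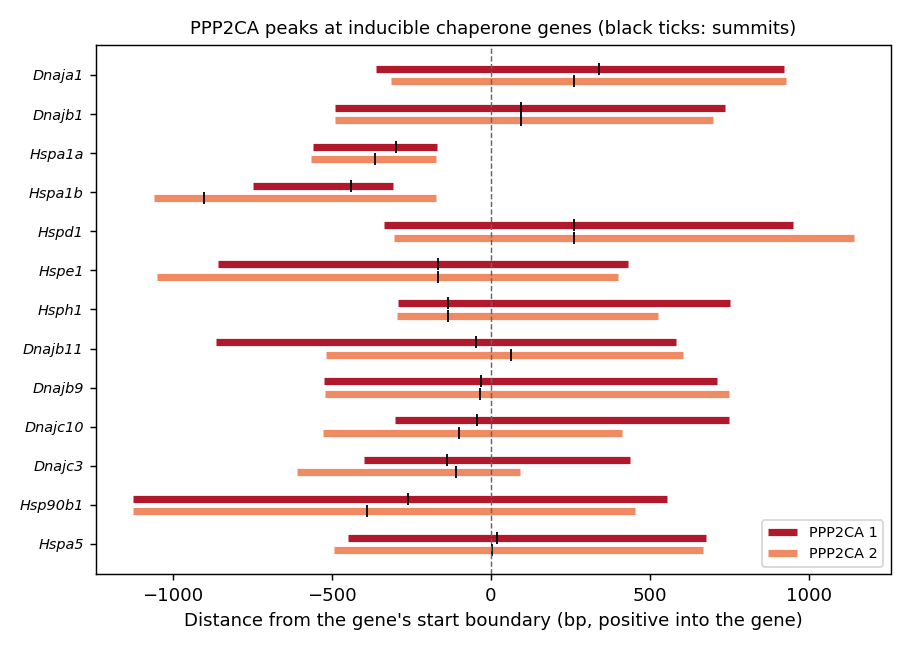
Extent of the PPP2CA 1 and PPP2CA 2 peaks of the highest region (bars, bp) and their summits (black ticks) at the 13 marked inducible genes placed by the promoter table, measured from the gene's start boundary with positive values into the gene. Peaks cross the start boundary at 11 genes, and at Hspa1a and Hspa1b they end before it, at -168 to -308 bp.

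Among marked constitutive members, Hspa8, Hspa4 and Hsp90ab1 had the highest summits. Hspa8, the constitutive HSP70 gene HSC70, on chromosome 9 at 40801276 to 40805202, had 335 and 341 fragments in PPP2CA 1 and 2, with a fold of 11.7 and 10.3. Hspa4, an HSP110 exchange factor for HSP70, had 221 and 257. Hsp90ab1, the constitutive HSP90 gene, on chromosome 17 at 45567778 to 45573261, had 157 and 193, next to 142 and 175 at its inducible counterpart Hsp90aa1. Both HSP90 genes were thus at similar heights, while among cytosolic HSP70 genes constitutive Hspa8 was above inducible Hspa1a and Hspa1b, whose values are uncertain because reads of these near-identical copies may be misplaced or dropped. Hspa14, a ribosome-associated HSP70 protein, had 44 and 62 fragments in a region shared with Cdnf.

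Hspa9, which encodes the mitochondrial HSP70 mortalin and lies on chromosome 18 at 34937414 to 34954351, was the only member with a control peak. Its PPP2CA summits held 160 and 194 fragments, with a fold of 12.2 and 12.3, and the IgG 1 summit held 7 fragments, with a fold of 5.49. IgG 2 had no peak there. Scaled by the lowest local background of each list to the depth of IgG 1, the PPP2CA summits would be 17.1 and 20.3 fragments. Hspa9 is left out of the marked members because of that IgG peak, and it was marked when IgG 1 was left out. Of the 60 marked members, 38 had PPP2CA summits that at IgG depth would still hold 3 fragments or more, the lowest called IgG summit, in every pairing of libraries. At 10 this held in some pairings only. At the other 12 it held in none, and there a signal equal with both antibodies would not have been detectable at this depth. Among the 10, Dnajc3 and Dnajc30 reached 3.0 only by rounding, in PPP2CA 1 at the depth of IgG 1. In all other pairings they were under 3, so unrounded both fall with the 12.

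The chaperonin TRiC, a ring of Tcp1 and Cct subunits that folds actin and tubulin, was marked throughout in its ubiquitous subunits. Tcp1, on chromosome 17 at 12916329 to 12925067, had 63 and 64 fragments in PPP2CA 1 and 2, Cct7 93 and 88, Cct6a 82 and 104, Cct2 79 and 89, Cct5 46 and 57, Cct3 45 and 51, Cct4 31 and 28, and Cct8 28 and 33. Although their proteins form a single complex, the summits differed by more than 3-fold within each library (28 to 93 and 28 to 104), and the order was similar in both. The regions of Tcp1, Cct3, Cct5, Cct6a and Cct7 also touched a neighbouring gene (Mrpl18, Tsacc, Atpsckmt, Psph and Pradc1). The PPP2CA 1 summits at Cct3 and Cct6a lay 11 and 17 bp from the starts of Tsacc and Psph, nearer than to their own. The testis form Cct6b was marked as well, with 46 and 47 fragments in a region shared with Zfp830, and Cct8l1 was not.

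Among J-domain protein genes, all 4 Dnaja genes, 8 of 13 Dnajb genes (61.5%) and 16 of 28 Dnajc genes (57.1%) were marked, against 39.5% of all genes, and no difference between these classes was tested. The marked Dnajb genes had a median of 104 and 91.5 fragments in PPP2CA 1 and 2, from 52 to 266 and 44 to 317, and the Dnajc genes a median of 26 and 31, from 12 to 88 and 13 to 77. No Dnajc gene reached 100 fragments in either library. Beside Dnajb1 and Dnajb9, the highest Dnajb summits were at Dnajb4 (187 and 226), whose region is shared with Fubp1 and whose PPP2CA 1 summit lay 105 bp from the start of that gene, and at Dnajb6 (138 and 113), a suppressor of protein aggregation. Dnajb2 had 71 and 70, Dnajb5 64 and 59, and Dnajb12, an ER membrane protein gene, 52 and 44. The unmarked Dnajb genes were Dnajb3, Dnajb7, Dnajb8, Dnajb13 and Dnajb14. Among constitutive members, Dnaja2 had 85 and 84 fragments, Dnajc7, an HSP70 and HSP90 adaptor, 88 and 63, Dnaja3, a mitochondrial protein gene, 28 and 46, Dnajc2, a ribosome-associated protein gene, 27 and 32, Dnajc8 25 and 24, and Dnajc19, of the mitochondrial import motor, 12 and 13. Dnajc14 had 50 and 77 fragments and Dnajc17 39 and 54. Dnajc16 had the lowest fold of all marked members in both libraries, 2.93 and 3.52, at 24 and 30 fragments, since its local background was 7.53 and 7.8.

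The small heat shock protein genes, which hold unfolded proteins without ATP, were marked at 4 of 8, near the 39.5% of all genes. Of these marked genes only Hspb11, whose protein is better known as part of the intraflagellar transport machinery, passed 50 fragments in both libraries (61 and 59), and its region was shared with Lrrc42. Hspb7 had 30 and 52 fragments, Hspb6 26 and 33, and Hspb9 13 and 16. The best Hspb7 region lay at the end of the gene, 5259 and 5157 bp from its start, and those of Hspb6 and Hspb9 were shared with Proser3 and Rab5c. Hspb1, Hspb2, Hspb3 and Hspb8 had no peak. Of other members with tissue-restricted use, Hspa2, a testis HSP70 gene, had 97 and 115 fragments, Hspa1l, which lies head to head with Hspa1a and shares its region, 21 and 20, and Hspa12a 9 and 10, the lowest of all marked members. Among the rest, Hspa4l, an HSP110 gene, had 32 and 43 fragments, Hspa13 19 and 26, and Hspbp1, an exchange factor for HSP70, 45 and 59.

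Members with a peak in a single PPP2CA library had low summits. In PPP2CA 2 alone, Dnajb13 and Hspbap1 held 19 fragments each, Dnajc9, a histone co-chaperone gene, 17, and Dnajc6 10, at 4.71% of members against 4.34% of all genes. In PPP2CA 1 alone, Dnajc12 held 16 and Dnajc28 9, at 2.35% of members against 3.72% of all genes. Both shares are near those of all genes.

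Across the 60 marked members, summits ran from 9 to 415 and 10 to 416 fragments, while the fold ran only from 2.93 to 12.4 and 3.52 to 11.6. The local background moved with the summit, from 0.784 and 1.1 fragments at Hspa12a to 34.0 and 39.6 at Hspa5, so the fold compresses the differences between members. In the 58 distinct regions of members the ratio of PPP2CA 2 to PPP2CA 1 fragments had a median of 1.12, from 0.716 at Dnajc7 to 1.8 at Hspa1b. At the 37 of these whose summits lay within 100 bp of each other, the variance between libraries was 0.949 times that of counting error, and over all 6788 such regions of the genome it was 0.759 times. Where both libraries had such a peak, they thus differed by less than the sampling noise and were counted as 1 sample, so values are given per library with no SD. Places called in a single library did not enter this comparison, and 12631 of 21771 merged regions held both.

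**Figure D4:**
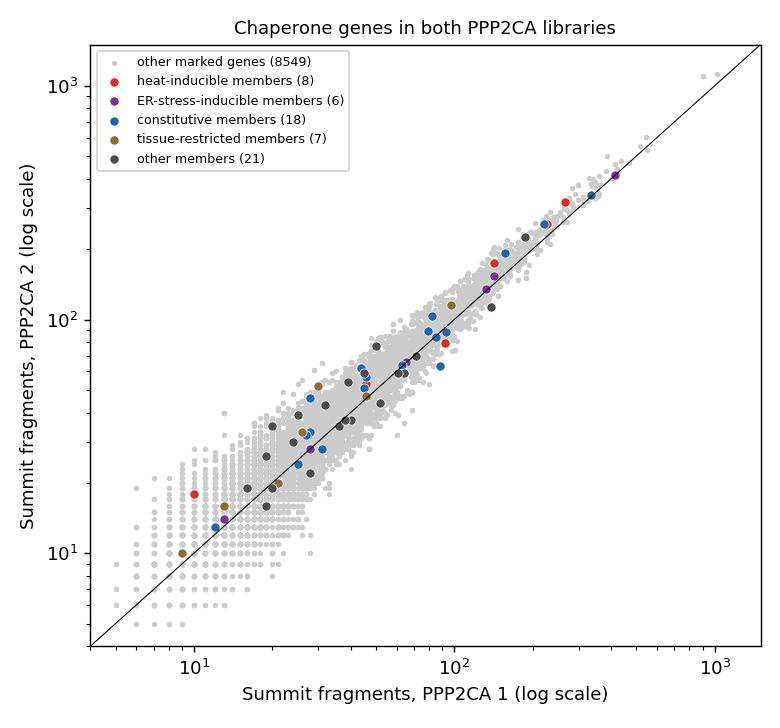
Summit fragments in PPP2CA 1 (x axis) and PPP2CA 2 (y axis), both on log scales, at the best region of every marked protein-coding gene (grey) and of the 60 marked chaperone genes (coloured by list); the line marks equal values. The members follow the line from 9 and 10 fragments at Hspa12a to 415 and 416 at Hspa5.

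PPP2CA summits lay close to the starts of the chaperone genes. Of the 50 marked members in the promoter table, both summits were within 250 bp of an annotated start of the gene at 39 (78.0%, against 60.3% of marked protein-coding genes in the table) and within 1 kb at 49 (98.0%, against 88.9%). Hspb7 was the exception. Counted over all genes in the table, marked or not, a region with both summits within 1 kb of the gene's own start was present at 49 of 69 members (71.0%), against 36.7% of all genes. The median distance was 104 and 116 bp in PPP2CA 1 and 2 for members and 154 and 159 bp for all marked genes. Summits were upstream of the nearest own start at 36 and 33 of 50 members (72.0% and 66.0%), against 47.7% and 46.8% of all marked genes. A gene can have several annotated starts, so a summit counted as upstream can lie inside the gene's outer limits. The Dnaja1 summits, for example, were at -114 and -193 bp from the nearest own start (upstream negative). From its start boundary they lay 340 and 261 bp into the gene. Of the 60 marked members, 26 had their region in common with another protein-coding gene (43.3%, against 32.9% of all marked genes), Hspd1 with Hspe1 and Hspa1a with Hspa1l among them. The part of such shared regions in the upstream positions was not tested.

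Genes that work with these chaperones or report their stress were examined as a list of 48 co-chaperone, prefoldin, mitochondrial protease and ER stress genes. Of these, 37 were marked (77.1%, against 39.5% of all genes), with a median summit of 43 and 54 fragments. The highest were Ddit3, the ER stress transcription factor CHOP (367 and 377 fragments, in a region shared with Mbd6), Calr, the ER lectin calreticulin (284 and 366), Bag6, which guards proteins bound for membranes (173 and 175), Canx, calnexin (121 and 125), and Pdia3, an ER disulfide isomerase (131 and 119, shared with Catsper2). Of the 11 unmarked genes, Atf4 and St13 had a region with an IgG 1 peak. Hsf2, Cryaa, Cryab and Pfdn4 had no peak of either PPP2CA library, Cdc37, Hsbp1, Hsf4 and Serpinh1 had one in PPP2CA 1 alone, and Pfdn5 had peaks in both libraries that formed no region. All lists were made with earlier results of these data known, so their shares are descriptions.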

How the data were processed

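Primary haematopoietic stem cells were profiled by CUT&Tag in 4 libraries (PPP2CA 1 and 2, IgG 1 and 2, grouped and numbered by the sample titles). The authors deposited 1 narrowPeak list per library. Per the submitters' processing notes, the tools MACS2, BWA, ChIPseeker, HOMER, Trimmomatic and deepTools and the builds mm10 and GRCm38 are named, and roles and settings are not given in the sources used here. The deposited values of each peak are its fold (a ratio of the summit to the local background), its −log10 p and −log10 q, its score, which is 10 times the −log10 q, and its summit position. Whether reads with several matches were kept, which bears on near-identical genes, and whether IgG served as a control in peak calling are not given in the sources used here.

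Summit fragments n and local background b were recovered from the deposited fold, taken as (n + 1)/(b + 1), and the Poisson p, tested on 3000 simulated summits (100% recovered). All 4 lists gave whole fragments for 100% of peaks, with a relative tolerance of 0.0001. The depth of the libraries is known only through the lowest local background of each list. Peaks were merged where they overlapped by at least 1 bp. Of 21771 merged regions 12631 held both PPP2CA libraries, and 193 of these held an IgG peak and were left out. Genes came from RefSeq GRCm38.p6, without entries below 3 Mb of any chromosome but Y. Starts, strands and promoters came from the RefSeq promoter table, which held 69 members. Members and lists were chosen with earlier results of these data known. Members are the symbols of the opening. The heat-inducible, ER-stress-inducible, constitutive, tissue-restricted, co-chaperone and cell marker lists were set by textbook knowledge. Genes named are all inducible and constitutive members, Hsf1, the highest other members, those with an IgG peak or a peak in 1 PPP2CA library, and the 5 highest co-chaperone genes. Further members were named after their values were seen. Values are counts, medians and ranges, with no test. Python 3.11.15, numpy 2.4.6, pandas 2.3.3, scipy 1.17.1 and matplotlib 3.10.9 were used.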

Additional observations from a re-analysis of the deposited data

Results flagged for a closer look

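Regions of both PPP2CA libraries inside chaperone genes, more than 1 kb from their boundaries and without an IgG peak, were not part of the counts above. They drew attention as signal outside the main measurement. At 3 genes unmarked at their boundaries (3.53% of members, against 5.79% of all genes) they were the only regions. Dnajc5, the synaptic vesicle protein gene CSP-alpha, held 60 and 70 fragments in PPP2CA 1 and 2, at a point 1593 bp from its boundary. Dnajc1, an ER membrane protein gene, held 22 and 22 fragments, 105 bp downstream of an annotated start that lies inside the gene's outer limits. Dnajc6, the clathrin uncoating factor auxilin, held 10 and 10. Among genes already marked, a further region held 31 and 33 fragments in Dnajb4, 53 bp from another of its annotated starts, 11 and 7 in Dnajc8, and 13 and 19 in Dnajc18. No IgG library had a peak at any of them.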

How the results depend on the processing

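The counts of marked members, out of 85 members, 15 inducible and 21 constitutive genes, were recomputed with windows of 500 bp and 2 kb, regions anywhere in the gene, a minimum −log10 q of 5, a minimum of 20 PPP2CA fragments, summits in place of peaks, regions with an IgG peak kept, other readings of the symbols and each library left out. Each stayed within 1.5 times its value: 51 to 64 members, 12 to 14 inducible and 17 to 19 constitutive genes. Without 1 library each the counts were 60 to 64, 14 to 14 and 18 to 19. The exception was the wider constitutive list of all members in neither inducible list, with 46 of 70 marked (65.7%). The minimum of 20 fragments removed 9 members, among them Hspa1b and Dnajc10, and took all genes to 26.5%. Summits within 1 kb of the gene's own start, an alternative chosen after seeing the data, gave 49 of 69.

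The ratio of the inducible to the constitutive median summit, 1.69 in PPP2CA 1 and 1.26 in PPP2CA 2, stayed above 1 in the settings tried. In PPP2CA 1 it was 1.18 by fold and 1.19 without shared regions. Constitutive Hspa9 (160 and 194 fragments) was left out of every ratio for its IgG peak, and the ratio with Hspa9 was not computed. Its summits lie above both constitutive medians, so counting it would not raise the ratio. Leaving out Hspa1a and Hspa1b, chosen after seeing the data, gave 2.06 in PPP2CA 1 and 1.71 in PPP2CA 2. Leaving out Hspa5 and Hspa8, the highest of each list, also chosen after seeing the data, gave 2.0 in PPP2CA 1 and 1.27 in PPP2CA 2. The cause of these shifts was not tested. No paired analysis was possible because the results come from no test. Low depth limits the IgG lists most, in which 61.3% and 58.7% of summits held fewer than 5 fragments.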
